A study of Mus musculus with 14 samples.

Results

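The comparison is between pressure-loaded mouse hearts that were labelled Clk3 knockout and pressure-loaded hearts that were labelled wild type. Members were taken by the sample labels: 4 knockout libraries and 2 wild-type libraries after TAC, 6 of the 14 libraries in the series. TAC is taken as transverse aortic constriction, an operation that narrows the aorta and loads the left ventricle. The remaining 8 libraries came from hearts after a sham operation, 4 of each genotype, and served for the estimate of spread and as reference levels. All mice were of the C57BL/6J strain, and all 6 TAC hearts were from animals of 10 weeks of age. In each sham group 2 animals were 10 weeks old and 2 were 11 weeks old. The labels do not give the allele or the promoter behind the knockout, the time under TAC or the sex, and they do not say whether each library came from its own animal. The p-values thus rest on spread among libraries that could be partly technical.

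Clk3 belongs to the CDC-like kinases, which phosphorylate the SR proteins that choose splice sites in pre-mRNA. A heart under pressure load enlarges its muscle cells and lays down fibrous matrix. Fibroblasts that take on an activated state secrete fibrillar collagens, the enzymes that crosslink them and matricellular proteins such as periostin. Some latent TGF-beta binding proteins hold the growth factor TGF-beta in that matrix. Muscle cells under load re-express fetal genes such as the natriuretic peptides and beta-myosin, and lower many genes of fatty acid oxidation.

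The 2 wild-type TAC libraries held 13287464 and 13441034 gene counts and the 4 knockout TAC libraries 11385818 to 18080226, against 11385818 to 20369637 over all 14. Reads in no annotated feature made up 10.7% in wild-type TAC 1, 14.9% in wild-type TAC 2 and 12.3% to 14.3% in the knockout TAC libraries. Levels are given below in CPM, a library's counts scaled to a common total after TMM scaling. The heart label held for Tnnt2, cardiac troponin T, which was at 3896 to 5593 CPM in the 6 libraries. The atrial marker Myl7 reached at most 0.272 CPM and the fat cell hormone gene Lep was at 0 in all 6. The full lists of atrial and adipocyte markers used below still held 1386 to 2832 CPM and 797 to 907 CPM in sum.

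The library labelled wild-type TAC 1 went against its label. Clk3, identifier ENSMUSG00000032316.8, on the minus strand of chromosome 9 (57750624 to 57765860, build GRCm38), stood at 54.2 CPM in that library and at 92.3 CPM in wild-type TAC 2. It was 64.9, 54.9, 50.7 and 61.4 CPM in the 4 knockout TAC libraries. Wild-type TAC 1 thus lay inside the knockout range and wild-type TAC 2 lay above it. Over the 8 knockout libraries of the series Clk3 ranged from 50.7 to 67.4 CPM, and over the other 5 wild-type libraries from 73.2 to 96.0 CPM. The knockout hearts kept most of the Clk3 counts, and counts per gene leave unseen what part of it the allele lacks. The difference after TAC was −0.34 ± 0.16 (log2, SE; edgeR quasi-likelihood test, adjusted p = 0.355). An exact two-sided permutation test of the 6 levels gave p = 0.4, where 0.0667 is the smallest value that 4 against 2 libraries allow. Without the library labelled wild-type TAC 1 the difference was −0.67 (edgeR adjusted p = 0.06), and without wild-type TAC 2 it turned to 0.09.

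Genotype-linked transcripts that do not come from Clk3 behaved in the same way. They were taken as the 5 genes of smallest p between genotypes in the sham hearts with at least a 2-fold difference and no overlap of libraries. Gm8730, a processed pseudogene that resembles the ribosomal protein gene Rplp0 (chromosome 8, 102864845 to 102865798, minus strand), was at 1.63 CPM in wild-type TAC 2, but the library labelled wild-type TAC 1 held 66.8 CPM. The 8 knockout libraries held 57.4 to 67.1 CPM and the other 5 wild-type libraries 1.26 to 1.63 CPM. Gm9625, another such pseudogene (chromosome 13, 67810246 to 67811200, plus strand), was at 20.3 CPM against 0.593 CPM in the 2 wild-type TAC libraries, with 16.1 to 21.03 CPM in the knockouts. Gm14165 (chromosome 2, 152353615 to 152354566, plus strand) was at 6.98 CPM against 0.148 CPM, with 7.03 to 8.86 CPM in the knockouts. All 3 placed the library labelled wild-type TAC 1 with the knockouts, inside their range for Gm8730 and Gm9625 and just below it for Gm14165. Rplp0 itself, at 452 CPM in that library, lay below the 465 to 567 CPM of the other 5 wild-type libraries and above the 375 to 441 CPM of the knockouts. Of all words of 25 bases in the annotated pseudogenes, 70.1% (Gm8730), 53.5% (Gm9625) and 46.6% (Gm14165) occur in Rplp0 transcripts, so reads of one may be counted to another and their levels are uncertain. The other 2 of the 5, Olfr1034 and Gm44152, did not separate the genotypes after TAC.

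A wider set of genes did not settle the label of that library. Among 148 genes called between genotypes in sham hearts without overlap, the library labelled wild-type TAC 1 was nearer the knockout sham mean for 26 and wild-type TAC 2 for 13, while the knockout TAC libraries were nearer for 46, 80, 61 and 46. Knockout TAC 1, 3 and 4 were themselves nearer the knockout sham mean for only the smaller part of these genes. The set cannot settle the label of a library after TAC for that reason. Counts below are therefore given with the library labelled wild-type TAC 1 and without it. Without it the wild-type arm is 1 library, which is assumed to vary like the other groups.

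**Figure D1:**
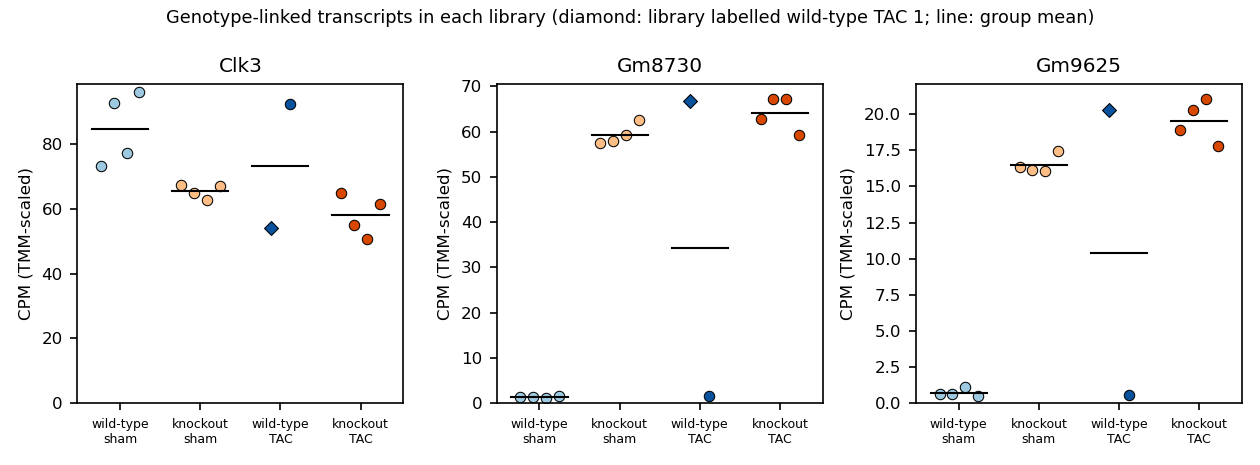
Level of Clk3 and of the Rplp0-like pseudogenes Gm8730 and Gm9625 in each of the 14 libraries (vertical axis, CPM, TMM-scaled, starting at 0), by genotype and operation. Points are libraries, lines are group means and the diamond is the library labelled wild-type TAC 1, which sits at 54.2, 66.8 and 20.3 CPM, among the knockout libraries in each panel.

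Knockout hearts carried lower levels of matrix and activated-fibroblast genes after TAC than wild-type hearts, and higher levels of a smaller group that included muscle-cell and metabolic genes. Of 15651 genes tested, 170 were lower in knockout, which is 1.09% of those tested, and 60 were higher, which is 0.383% (edgeR quasi-likelihood test, adjusted p under 0.05). Among the 170 lower genes 72 differed at least 2-fold, with a median difference of −0.90 (log2). Among the 60 higher genes 6 did, with a median of 0.56. The libraries of the 2 genotypes did not overlap for any of the 230 genes. Over all genes tested, 10.8% were lower without overlap and 11.0% higher without overlap. Knockout TAC 4 was the knockout library nearest to wild type for 102 of the 170 lower genes and for 34 of the 60 higher ones.

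Without the library labelled wild-type TAC 1, 45 genes were lower (0.278% of 16199 tested) and 5 were higher (0.0309%). Of the 170 lower genes 32 were called again, and the median over all 170 was −0.79. Of the 60 higher genes 1 was called again, and the median over all 60 was 0.48. A gene described below as lower or higher lost its call without this library unless it is in the core of 28 described next or is Cthrc1, Col8a2 or Sfrp2. The 5 higher genes were Gm8730, Gm9625, Gm14165, Carnmt1 and Pitpnc1. Single libraries moved the total of 230 calls by more than 1.5 times in most cases. It was 50 without wild-type TAC 1, 368 without wild-type TAC 2, 147 without knockout TAC 1, 88 without knockout TAC 2 and 148 without knockout TAC 3. It was 289 without knockout TAC 4.

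A core of 28 genes (0.179% of those tested) stayed past the threshold with all 6 libraries and whichever of the 6 was left out, 27 of them lower in knockout. Of these 28, 14 belong to 6 lists of matrix genes and 11 are in no list used here. Every member was also called with the library labelled wild-type TAC 1 as the lone wild-type library, whose Clk3 and pseudogene levels were knockout-like. Whether the core depends on that label was not tested. With the 6 TAC libraries alone Col5a2, Numbl, P3h3, Pitpnc1 and Ltbp3 lost the call (edgeR adjusted p = 0.0559 to 0.0618). With the coding part only Ddah1 and Pitpnc1 lost it (edgeR adjusted p = 0.249 and 0.054). Loxl3 ranked first in the core when genes were ordered by their largest adjusted p over the fits that leave out a library. It encodes a lysyl oxidase-like enzyme that crosslinks collagen and elastin (ENSMUSG00000000693.10, chromosome 6, 83034173 to 83052562, plus strand). Loxl3 was at 23.4 and 35.9 CPM in wild type against 10.3, 8.18, 11.6 and 10.2 CPM in knockout, a 2.93-fold difference (log2 −1.55 ± 0.15 SE, edgeR adjusted p = 0.000188). Both wild-type libraries lay above all 4 knockouts, and the knockouts came near the sham range of 7.20 to 9.69 CPM.

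Ltbp2, an elastic microfibril protein named for the latent TGF-beta binding protein family (ENSMUSG00000002020.15, chromosome 12, 84783212 to 84876532, minus strand), was at 79.3 and 81.5 CPM in wild type. In the 4 knockouts Ltbp2 was at 12.9, 12.5, 21.5 and 19.8 CPM. It was thus 4.78-fold lower (log2 −2.26 ± 0.23, edgeR adjusted p = 0.000278), and −2.28 without the library labelled wild-type TAC 1 (adjusted p = 0.00333). The 2 wild-type libraries were nearly equal, and every knockout lay far below both. Col1a2, a chain of type I collagen (ENSMUSG00000029661.16, chromosome 6, 4504814 to 4541544, plus strand), was at 632 and 524 CPM in wild type against 248, 229.6, 252 and 318 CPM in knockout, 2.20-fold lower (edgeR adjusted p = 0.000188). Mmp2, the gelatinase that cleaves denatured collagen, was at 188 and 182 CPM in wild type against 90.0, 82.0, 103 and 107 CPM in knockout, 1.94-fold lower (edgeR adjusted p = 0.00026). For both genes the groups were well apart, and all knockouts lay above the sham maxima of 228 CPM (Col1a2) and 80.7 CPM (Mmp2). The lowest knockouts, at 229.6 and 82.0 CPM, were just above them, and the highest were at 318 and 107 CPM.

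The other members of the core had varied roles. Ssc5d, a scavenger receptor-like protein, differed by −1.20 (log2) and Mxra8, a matrix-remodelling associated membrane protein, by −0.71. Serpinf1, which encodes the secreted factor PEDF, differed by −1.19, Adcy7, an adenylate cyclase, by −1.13, and Dok1, a docking protein of tyrosine kinases, by −1.03. Nkd2, an inhibitor of Wnt signalling, differed by −1.39 and Pdgfrl, a PDGF receptor-like protein, by −1.51. Piezo2, a stretch-gated ion channel, was at 4.30 and 5.19 CPM in wild type against 1.48, 0.608, 1.03 and 1.65 CPM in knockout (log2 −2.003 ± 0.33, edgeR adjusted p = 0.006). Numbl, an adaptor related to the Notch antagonist Numb, differed by −0.85 and P3h3, a collagen prolyl hydroxylase family member, by −0.67. Pitpnc1, a phosphatidylinositol transfer protein (chromosome 11, 107207892 to 107470699, minus strand), was the only member of the core that was higher. It was at 83.7 and 81.4 CPM in wild type against 120.4, 118, 109.6 and 111 CPM in knockout, 1.39-fold higher (log2 0.48 ± 0.07, edgeR adjusted p = 0.00322). Sham hearts held 121 to 142 CPM of Pitpnc1, so the knockout TAC libraries lay closer to sham than the wild-type ones.

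**Figure D2:**
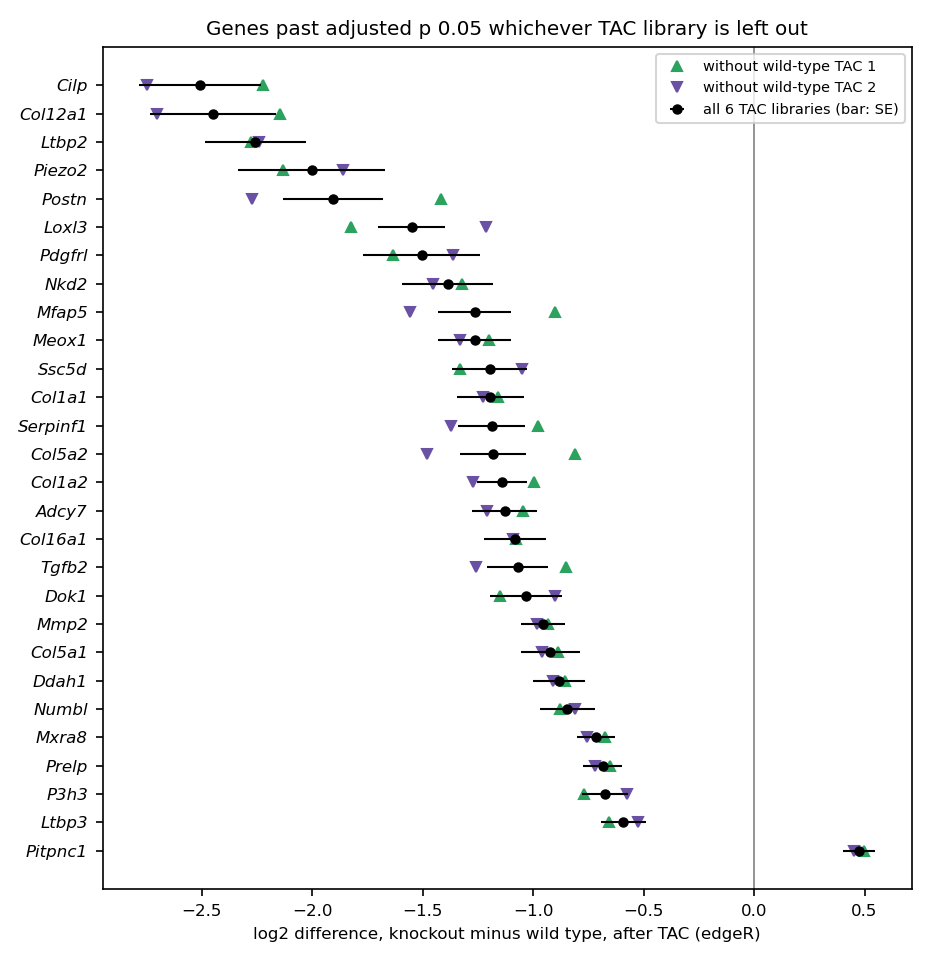
Difference between knockout and wild type after TAC (horizontal axis, log2, edgeR) for the 28 genes past adjusted p 0.05 whichever TAC library was left out. Circles with SE bars use all 6 TAC libraries, triangles leave out one wild-type library each. The values run from −2.51 for Cilp to 0.48 for Pitpnc1, the only gene to the right of 0.

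Promoter sequence is shown for some members of the core, the genes whose calls held whichever library was left out. RefSeq promoters (GRCm38.p6, 250 bases before each start) were matched for 17 of the 28 by symbol. The 200 bases before the start are shown for Ltbp2, Col1a2, Mxra8 and Col16a1, the 4 members of highest rank in the core that had an entry, 5′ to 3′ on the gene's strand. They lie at chr12:84876492-84876691 (minus), chr6:4505418-4505617 (plus), chr4:155839480-155839679 (plus) and chr4:130047640-130047839 (plus). Capitals mark matches, on either strand, to CCAAT (the CCAAT box), GGGCGG (the GC box), TATAAA (the TATA box), CATTCC (the TEAD motif) and TGANTCA (the AP-1 motif).
Ltbp2: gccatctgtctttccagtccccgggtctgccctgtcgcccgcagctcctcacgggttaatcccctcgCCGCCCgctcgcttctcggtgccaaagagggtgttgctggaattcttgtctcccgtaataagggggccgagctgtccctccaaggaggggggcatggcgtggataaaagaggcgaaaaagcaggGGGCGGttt
Col1a2: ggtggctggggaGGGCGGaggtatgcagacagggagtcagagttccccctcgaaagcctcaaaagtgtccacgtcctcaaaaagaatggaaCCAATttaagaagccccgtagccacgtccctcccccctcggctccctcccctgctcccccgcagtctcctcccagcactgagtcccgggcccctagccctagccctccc
Mxra8: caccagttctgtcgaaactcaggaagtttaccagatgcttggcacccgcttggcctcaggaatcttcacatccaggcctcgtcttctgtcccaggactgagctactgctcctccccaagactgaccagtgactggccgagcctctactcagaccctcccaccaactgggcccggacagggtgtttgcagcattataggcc
Col16a1: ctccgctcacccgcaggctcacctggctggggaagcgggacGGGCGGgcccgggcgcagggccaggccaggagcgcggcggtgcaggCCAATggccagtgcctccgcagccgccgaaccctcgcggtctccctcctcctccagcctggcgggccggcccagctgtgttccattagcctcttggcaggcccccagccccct

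In the 250 bases before the start, CCAAT was found in 9 of the 17 promoters, against 37.5% of the 27025 genes with an entry. GGGCGG was found in 6 of the 17, against 35.4% of all. TATAAA was found in 2 (14.3% of all), CATTCC in 1 (14.4%) and TGANTCA in 1 (7.82%). Among the matrix genes called lower, 27 of 42 had an entry, and 15 of the 27 held GGGCGG while 6 held CCAAT. A match is a string of letters and says nothing of which factor binds.

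Of the gene classes in the lists used here, matrix genes held the most of the lower genes. The 6 lists of matrix genes hold 132 genes with a row in the tables, of which 124 were tested. Of these 42 were lower (33.9%, against 1.09% of all genes tested), none was higher and 82 did not pass (edgeR, adjusted over all genes). Their median difference was −0.60, against 0.00 over all genes tested. Of the 124, 74 were lower without overlap between libraries (59.7%, against 10.8% of all) and 1 was higher without overlap. With wild-type TAC 2 as the lone wild-type library, 18 were lower, none was higher and the median was −0.50. The lists were chosen with results of these data known, so their counts are a description.

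Fibrillar collagens, which form the load-bearing fibres of the scar and interstitium, and the chaperones that fold them, were lower in 6 of 21 genes tested, and all 21 had a negative difference (median −0.45, and −0.49 without the library labelled wild-type TAC 1). Col1a1, the partner chain of Col1a2, was at 414 and 395 CPM in wild type against 172, 159.9, 158 and 216 CPM in knockout (log2 −1.19 ± 0.15, edgeR adjusted p = 0.00105). Col3a1, type III collagen, was at 1165 and 966 CPM against 492, 457, 404 and 732 CPM (log2 −1.03 ± 0.17, adjusted p = 0.00757). Col5a2, which nucleates collagen fibrils, was at 269 and 169.6 CPM against 93.1, 91.7, 83.4 and 119 CPM (log2 −1.18 ± 0.15, adjusted p = 0.00105). Wild-type values exceeded every knockout value for all 3, and the 2 wild-type libraries were close for Col1a1 and further apart for Col5a2. Col5a1 and Pcolce, an enhancer of procollagen processing, made up the 6. Col1a1, Col1a2, Col5a1 and Col5a2 belong to the core. Col3a1 and Pcolce lost the call without the library labelled wild-type TAC 1 (edgeR adjusted p = 0.126 and 0.154).

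Other collagens showed the highest share of calls, with 10 of 18 lower and none higher (median −0.77, and −0.55 without the library labelled wild-type TAC 1). Col12a1, a collagen that decorates fibrils and is abundant in tendon, was at 29.2 and 19.9 CPM in wild type against 3.69, 3.45, 6.63 and 3.90 CPM in knockout, 5.46-fold lower (log2 −2.45 ± 0.28, edgeR adjusted p = 0.000807). Knockout TAC 3 held the highest of these knockout levels, and all 4 lay above the sham maximum of 3.36 CPM. Col16a1, a fibril-associated collagen, was nearly equal in the 2 wild-type libraries, at 48.5 and 48.1 CPM, and at 23.7, 19.0, 19.1 and 29.5 CPM in knockout (log2 −1.08 ± 0.14, adjusted p = 0.00105). Col8a2 was higher in wild-type TAC 2 (22.2 CPM) than in wild-type TAC 1 (10.7 CPM), with 2.03, 2.16, 6.90 and 1.98 CPM in knockout. Its call held without wild-type TAC 1 (edgeR adjusted p = 0.042) and was lost without wild-type TAC 2 (0.146). Col8a1 showed the opposite order, at 384 CPM in wild-type TAC 1 and 158 CPM in wild-type TAC 2, against 75.2 to 129.8 CPM in knockout. Its difference of −1.49 became −0.71 (adjusted p = 0.226) without wild-type TAC 1. Col22a1, Col4a4, Col15a1 and the chains Col6a1, Col6a2 and Col6a3 of beaded-filament collagen completed the 10. Without the library labelled wild-type TAC 1 3 members of the list were called lower.

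Matricellular and tendon-like genes, which signal to cells rather than bear load, were lower in 9 of 25 and higher in none (median −0.79 with and without the library labelled wild-type TAC 1, where 4 were lower). Cilp, a secreted TGF-beta antagonist of cartilage that is also made by cardiac fibroblasts (ENSMUSG00000042254.14, chromosome 9, 65265180 to 65280605, plus strand), was at 337 and 235 CPM in wild type against 41.9, 31.7, 71.1 and 55.5 CPM in knockout. It was 5.69-fold lower (log2 −2.51 ± 0.27, edgeR adjusted p = 0.00105). Postn, which encodes periostin and marks activated fibroblasts (ENSMUSG00000027750.16, chromosome 3, 54361109 to 54391037, plus strand), was at 879 and 487 CPM against 156, 158, 188 and 227 CPM, 3.74-fold lower (log2 −1.90 ± 0.23, adjusted p = 0.00105). The log2 difference of Postn was −1.42 without the library labelled wild-type TAC 1, and it kept the call (adjusted p = 0.0227). The wild-type libraries differed from each other for Postn, and the lower of them still lay above all knockouts, which in turn lay above the sham maximum of 91.0 CPM.

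Thbs4, thrombospondin 4, had one of the largest differences of the list, at 185 and 99.9 CPM in wild type against 17.3, 11.0, 36.6 and 16.4 CPM in knockout (log2 −2.79 ± 0.47, edgeR adjusted p = 0.0149). It lost the call without the library labelled wild-type TAC 1 (log2 −2.28, adjusted p = 0.16). Tnmd, the tendon gene tenomodulin, was at 1.84 and 1.93 CPM in wild type against 0, 0, 0.326 and 0 CPM in knockout (adjusted p = 0.0432, and 0.171 without wild-type TAC 1). Fn1, fibronectin, was at 156 and 129 CPM against 79.3, 79.0, 68.2 and 102 CPM (log2 −0.79 ± 0.13, adjusted p = 0.00414, and 0.0934 without wild-type TAC 1). Tnc (tenascin C), Ccn4 and the secreted Wnt modulators Sfrp1 and Sfrp2 were the other members called. Sfrp2 was higher in wild-type TAC 2 (24.2 CPM) than in wild-type TAC 1 (12.7 CPM), and at 4.80, 4.80, 6.95 and 8.65 CPM in knockout, and it was called without wild-type TAC 1 (adjusted p = 0.0269) and not without wild-type TAC 2 (0.196).

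Elastic fibre and lysyl oxidase genes, which assemble microfibrils and crosslink collagen and elastin, were lower in 10 of 21 and higher in none (median −0.90, and −0.61 without the library labelled wild-type TAC 1, where 4 were lower). Beside Loxl3 and Ltbp2, Mfap5, a microfibril glycoprotein, was at 145 and 92.2 CPM in wild type against 47.3, 41.8, 49.7 and 58.9 CPM in knockout (log2 −1.26 ± 0.17, edgeR adjusted p = 0.00124). Lox, the founding lysyl oxidase, was at 51.7 and 37.4 CPM against 17.2, 11.8, 18.8 and 20.5 CPM (log2 −1.38 ± 0.19, adjusted p = 0.00176, and 0.0548 without wild-type TAC 1). Loxl1, Loxl2, Ltbp3, Ltbp4, Mfap4 and Fbln5 (fibulin 5) were lower too. Of the lysyl oxidases Lox, Loxl1, Loxl2 and Loxl3 were thus lower, and Loxl3 alone of these 4 without wild-type TAC 1. Of the latent TGF-beta binding proteins Ltbp2, Ltbp3 and Ltbp4 were lower, and Ltbp2 and Ltbp3 without wild-type TAC 1. Ltbp3 was among the smaller differences of the core, at 78.4 and 86.0 CPM in wild type against 50.1, 49.8, 56.7 and 61.5 CPM in knockout (1.51-fold, adjusted p = 0.00808).

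Small leucine-rich proteoglycans, which bind collagen fibrils and set their diameter, were lower in 2 of 13 and none was higher, and all 13 differences were negative (median −0.57). Prelp was at 102 and 97.6 CPM in wild type against 58.6, 58.8, 66.0 and 64.7 CPM in knockout (log2 −0.69 ± 0.09, edgeR adjusted p = 0.00105). Bgn, biglycan, was at 692 and 518 CPM against 316, 306, 262 and 411 CPM (log2 −0.90 ± 0.16, adjusted p = 0.0111, and 0.18 without wild-type TAC 1). Fmod, fibromodulin, showed a wide spread in knockout, at 2.49, 1.62, 11.5 and 2.71 CPM against 24.8 and 46.6 CPM in wild type, and its difference of −2.90 ± 0.81 did not pass (adjusted p = 0.116). Among metalloproteinases and their inhibitors 5 of 27 were lower (1.09% of all genes tested) and none was higher (median −0.03, −0.23 without wild-type TAC 1 and −0.11 without wild-type TAC 2). These were the proteases Mmp2, Mmp23, Adamts2 (which trims procollagen) and Adamts8, and the inhibitor Timp2, at 175 and 172 CPM in wild type against 119.9, 114, 143 and 132 CPM in knockout (log2 −0.45 ± 0.09, adjusted p = 0.016). Without the library labelled wild-type TAC 1 only Mmp2 of the 5 was called. Adamts8 was at 10.2 CPM in that library and 3.04 CPM in wild-type TAC 2, and its difference went from −1.90 to −0.78 without it.

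**Figure D3:**
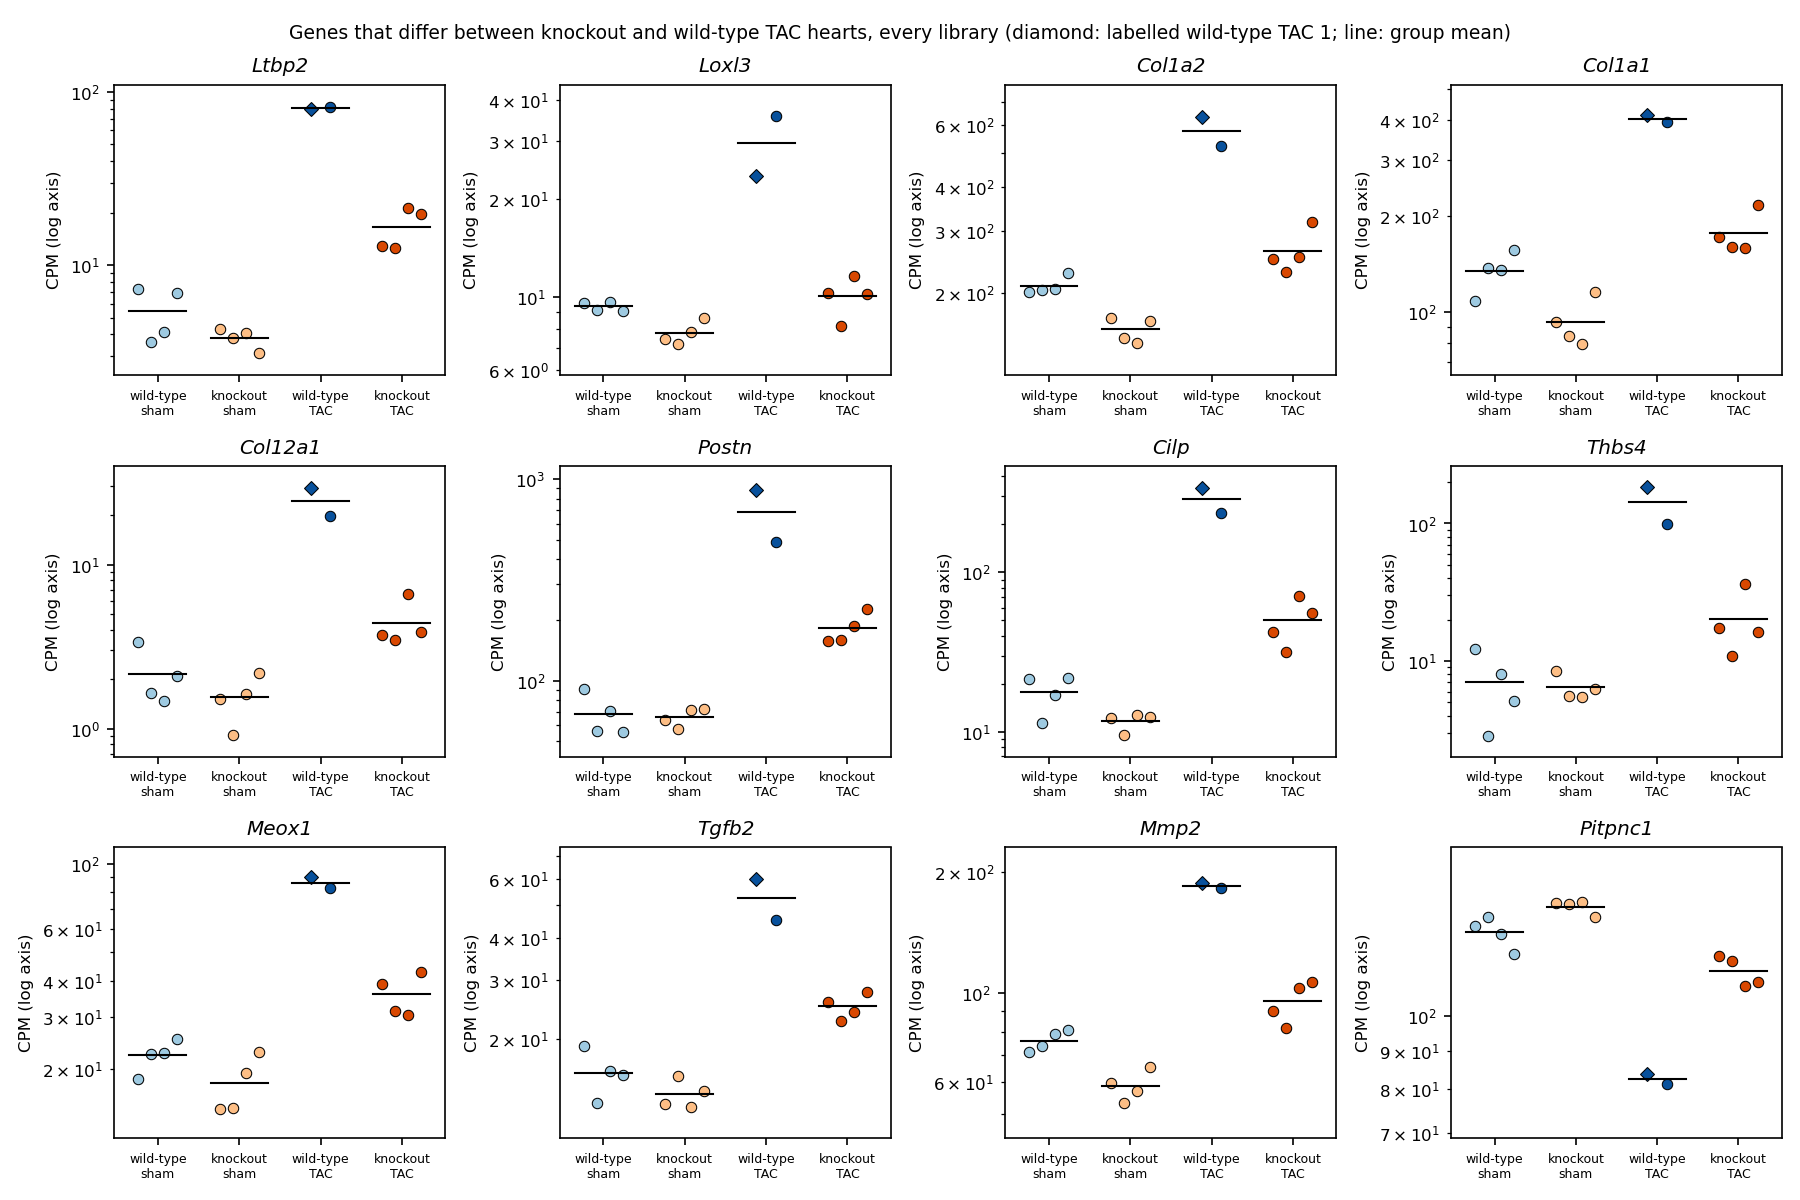
Level of 12 genes in each of the 14 libraries (vertical axis, CPM, log axis), by genotype and operation. Points are libraries, lines are group means and the diamond is the library labelled wild-type TAC 1. Outside the Pitpnc1 panel both wild-type TAC libraries lie above all 4 knockout TAC libraries, as for Ltbp2 with 79.3 and 81.5 against at most 21.5 CPM, and in the Pitpnc1 panel both lie below.

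Among TGF-beta ligands, receptors and related genes, 4 of 23 were lower, against 1.09% of all genes tested, and none was higher (median −0.19). Tgfb2, a ligand of the family, was at 59.8 and 45.1 CPM in wild type against 25.7, 22.6, 24.02 and 27.6 CPM in knockout (log2 −1.07 ± 0.14, edgeR adjusted p = 0.00105). Tgfb3 was at 47.7 and 51.4 CPM against 29.8, 26.1, 29.0 and 33.0 CPM (log2 −0.75 ± 0.13, adjusted p = 0.00825, and 0.0554 without wild-type TAC 1). Fstl1, a secreted modulator of BMP signalling, and Tgfbi, a TGF-beta induced matrix protein, were the other 2. Knockout and wild type did not overlap for these genes. Tgfb2 alone of the list was called without the library labelled wild-type TAC 1 (adjusted p = 0.0317).

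Activated-fibroblast genes were lower in 9 of 20 and higher in none, with 19 of 20 differences negative (median −0.90, and −0.83 without the library labelled wild-type TAC 1, where 4 were lower). Over all genes tested 1.09% were lower and 0.383% higher. Meox1, a homeobox factor of activated fibroblasts, was at 90.2 and 82.4 CPM in wild type against 39.1, 31.4, 30.6 and 42.7 CPM in knockout (log2 −1.26 ± 0.17, edgeR adjusted p = 0.00105). Ddah1, which breaks down the nitric oxide synthase inhibitor ADMA, was at 19.3 and 18.7 CPM against 9.79, 10.1, 10.3 and 10.9 CPM (log2 −0.88 ± 0.12, adjusted p = 0.00105). With the coding part only the difference of Ddah1 was −0.65 and did not pass (edgeR adjusted p = 0.249). Cthrc1, a collagen triple helix repeat protein secreted by matrix-producing fibroblasts, was at 2.61 and 5.33 CPM against 0.277, 0.608, 1.36 and 0.726 CPM (log2 −2.33 ± 0.42, adjusted p = 0.00989). Frzb, Ptn (pleiotrophin) and Itgbl1 were called too, beside Postn, Lox and Sfrp1, which other lists also hold. The mean log2 level of the list was 4.74 and 4.63 in wild type and 3.68, 3.58, 4.05 and 3.90 in knockout, against 3.15 to 3.63 in wild-type sham hearts.

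Markers of fibroblast identity differed in both directions, where 1.09% of all genes tested were lower and 0.383% higher. Of 18 tested 4 were lower, Pi16, Islr, Col15a1 and Mfap4, and 1 was higher, Scara5 (median −0.27, and −0.15 without the library labelled wild-type TAC 1, where none was called in either direction). Their mean log2 level was 6.55 and 6.36 in wild type and 6.13, 6.08, 6.14 and 6.21 in knockout, and their summed level was 3320 to 3830 CPM against 2857 to 3152 CPM. None of the 18 was under 1 CPM in all 6 libraries. Of the general fibroblast genes, Pdgfra was at 71.1 and 67.9 CPM in wild type and 56.4 to 62.4 CPM in knockout. Tcf21 overlapped, at 10.3 and 8.82 against 7.84 to 8.86 CPM, and so did Dpt, at 115 and 129 against 94.4 to 123 CPM. In these whole-tissue samples fewer cells of a type and less RNA per cell cannot be told apart. The part of fibroblast number in the matrix result was not tested. Pi16, a marker of adventitial fibroblasts, was at 207 and 194 CPM in wild type against 101, 107, 107 and 127 CPM in knockout (log2 −0.85 ± 0.14, edgeR adjusted p = 0.00494). Scara5, a scavenger receptor that binds ferritin, was at 12.3 and 18.0 CPM against 25.6, 27.3, 22.5 and 28.4 CPM (log2 0.77 ± 0.14, adjusted p = 0.0131). Sham hearts held 37.2 to 52.3 CPM of Scara5, above every TAC library.

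**Figure D4:**
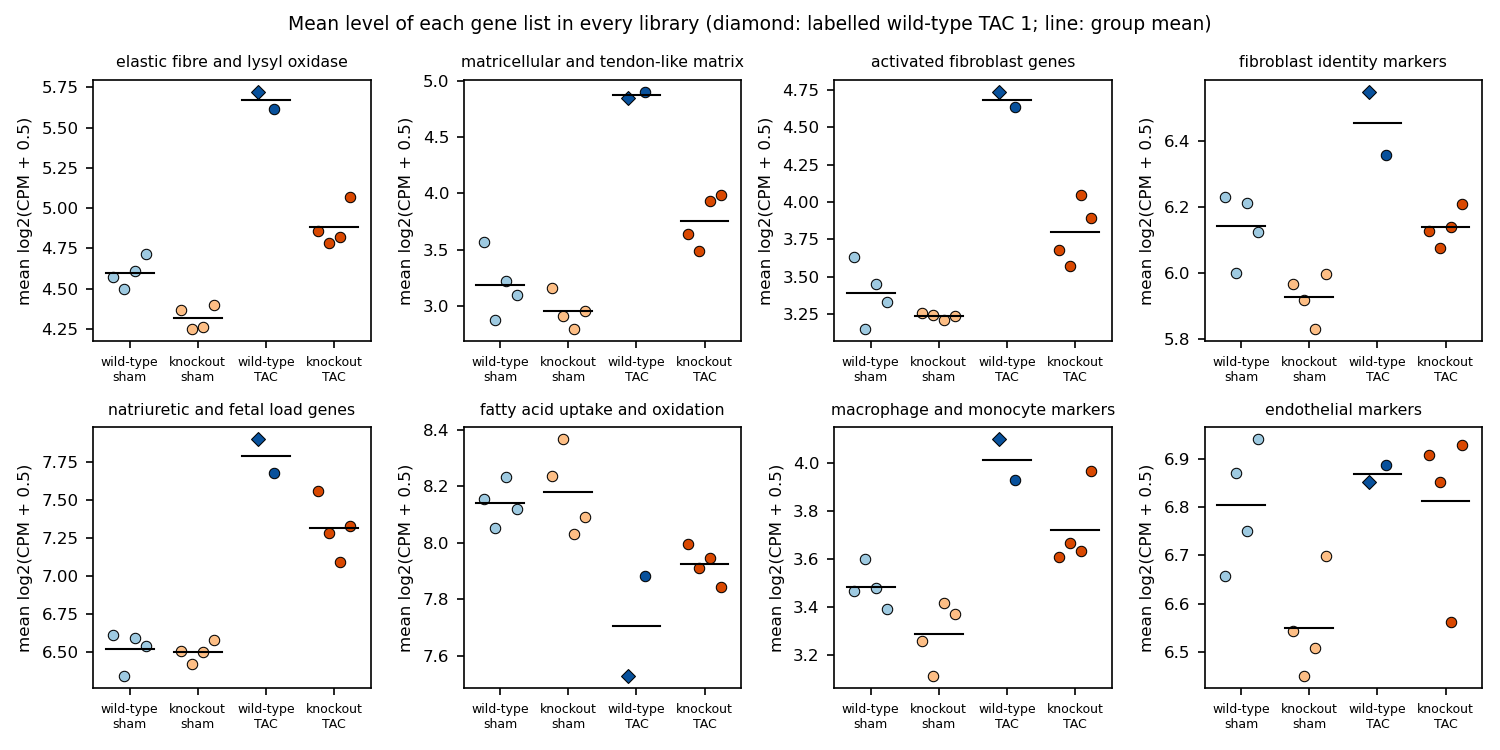
Mean level of 8 gene lists in each of the 14 libraries (vertical axis, mean of log2(CPM + 0.5) over the tested members), by genotype and operation. Points are libraries, lines are group means and the diamond is the library labelled wild-type TAC 1. The activated-fibroblast list lies at 4.74 and 4.63 in wild-type TAC and at 3.58 to 4.05 in knockout TAC, while the endothelial list overlaps between genotypes after TAC.

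Few genes of cardiac load were called, though most differences pointed the same way. Of 29 natriuretic and fetal genes tested 2 were lower by edgeR, Ankrd1 and Nupr1, and none was higher, against 1.09% and 0.383% of all. Of the 29 differences 26 were negative. At an unadjusted p under 0.05, 12 were lower and none higher, and DESeq2 called 8 lower and none higher. Over all 15651 genes tested, 2300 had an unadjusted p under 0.05 in either direction, and DESeq2 called 301 lower and 182 higher. The median difference was −0.49, and −0.22 without the library labelled wild-type TAC 1. Of the 29, 12 were lower without overlap and 1 was higher, against 10.8% and 11.0% of all genes tested. Ankrd1, a titin-associated stress protein of muscle cells, was at 3908 and 3973 CPM in wild type against 2891, 2424, 2176 and 2735 CPM in knockout (log2 −0.62 ± 0.14, edgeR adjusted p = 0.0321). Without wild-type TAC 1 neither was called and Trib3 was. Ankrd1 lost the call without either wild-type library (adjusted p = 0.162 and 0.085). Nppa, atrial natriuretic peptide, was at 1912 and 1808 CPM against 909, 639, 1119 and 709.8 CPM, without overlap. Its difference of −1.14 ± 0.30 did not pass with edgeR (adjusted p = 0.0843) and passed with DESeq2 (adjusted p = 0.0287). Myh7, the fetal beta-myosin heavy chain, was at 4684 and 5736 CPM against 3063, 1725, 1454 and 1427 CPM, also without overlap (log2 −1.44 ± 0.54, adjusted p = 0.24). Both stood far above the sham ranges of 104 to 235 CPM for Nppa and 121 to 742 CPM for Myh7, in every TAC library.

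Other load genes did not pass by edgeR. Nppb, B-type natriuretic peptide, was at 691 and 649 CPM in wild type against 864, 532, 382 and 507 CPM in knockout (log2 −0.23 ± 0.33, edgeR adjusted p = 0.823). Acta1, skeletal alpha-actin, was at 3326 and 1265 CPM against 1618, 1365, 296 and 1524 CPM (log2 −0.94 ± 0.61, adjusted p = 0.53), so that its wild-type mean rested on the library labelled wild-type TAC 1 (log2 −0.08 without it). Fhl1, a sarcomere-associated LIM protein, was at 551 CPM in that library and at 229 CPM in wild-type TAC 2. The knockouts held 164 to 219 CPM. Fhl1 did not pass with edgeR (adjusted p = 0.0529) and passed with DESeq2 (adjusted p = 0.00126). Its difference went from −1.02 to −0.25 without wild-type TAC 1. Myh6, which encodes the alpha-myosin of the adult heart, was at 9545 and 13502 CPM against 15161, 12965, 11207 and 11733 CPM (log2 0.15 ± 0.15, adjusted p = 0.708, and −0.08 without wild-type TAC 1). Atp2a2, the calcium pump SERCA2, was at 6073 and 6404 CPM against 7262, 7391, 7369 and 6572 CPM (log2 0.20 ± 0.08, adjusted p = 0.273).

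Sarcomere genes showed no call in either direction among 24 tested (edgeR, median 0.01). At an unadjusted p under 0.05, 2 were lower and 2 higher, against 2300 of 15651 over all genes in either direction. DESeq2 called 1 lower. Myl2, the ventricular regulatory light chain, had the smallest p of the list, at 2352 and 2617 CPM in wild type against 2132, 1739, 1496 and 1581 CPM in knockout (adjusted p = 0.0666). Genes of calcium and potassium handling were higher in 2 of 28, against 0.383% of all genes tested, and lower in none (median 0.16). Of the 28, 12 were higher without overlap, against 11.0% of all genes tested. Kcnv2, a modifier subunit of voltage-gated potassium channels, was at 3.68 and 5.70 CPM in wild type against 14.3, 12.9, 12.4 and 8.26 CPM in knockout (log2 1.34 ± 0.28, adjusted p = 0.0295), the largest rise by the naming rule. Kcnj3, a subunit of the acetylcholine-gated potassium channel, was at 36.8 and 50.97 CPM against 63.5, 81.7, 95.7 and 62.2 CPM (log2 0.79 ± 0.17, adjusted p = 0.0367). Both were below their sham ranges (15.3 to 29.9 and 95.2 to 149.99 CPM) in every TAC library of both genotypes, except Kcnj3 in the knockout at 95.7 CPM. Neither was called without the library labelled wild-type TAC 1 (adjusted p = 0.256 and 0.287). Ryr2, the calcium release channel, did not pass, at 1506 and 1361 CPM against 1522, 2012, 2003 and 1744 CPM (adjusted p = 0.204).

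Genes of branched-chain amino acid breakdown and the TCA cycle were higher in 4 of 35 and lower in none (median 0.15, and 0.17 without the library labelled wild-type TAC 1, where none was called), and 18 of the 35 were higher without overlap, against 11.0% of all genes tested. Aldh6a1, a mitochondrial dehydrogenase of valine breakdown, was at 203 and 216 CPM in wild type against 290.4, 305, 289 and 295 CPM in knockout (log2 0.49 ± 0.07, edgeR adjusted p = 0.0028, and 0.06 without wild-type TAC 1). Mccc2, a subunit of the leucine pathway's carboxylase, was at 56.5 and 62.8 CPM against 77.2, 79.7, 85.5 and 73.7 CPM (adjusted p = 0.0228). Dbt and Bckdhb, subunits of the branched-chain ketoacid dehydrogenase, were the other 2, 1.33-fold and 1.34-fold higher. The 4 called genes all act on branched-chain amino acids, and 0.383% of all genes tested were called higher. For all 4 the sham range lay above the knockout TAC values, as for Aldh6a1 at 317 to 406 CPM.

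Fatty acid uptake and oxidation genes had no call among 36 (edgeR, median 0.24, and 0.17 without the library labelled wild-type TAC 1), although 21 of the 36 were higher in knockout without overlap, against 11.0% of all genes tested. At an unadjusted p under 0.05, 22 were higher and none lower, against 2300 of 15651 over all genes in either direction. DESeq2 called 7 higher, against 182 over all genes. Cpt2, the inner-membrane carnitine transferase, was at 163 and 189.7 CPM in wild type against 238, 226, 231 and 203 CPM in knockout (log2 0.35 ± 0.09, adjusted p = 0.0621). Eci1 and Hadh, enzymes of the oxidation cycle, differed by 0.39 (adjusted p = 0.0668) and 0.33 (adjusted p = 0.0785). The mean log2 level of the list was 7.88 in wild-type TAC 2 and 7.53 for the library labelled wild-type TAC 1, with 7.997, 7.91, 7.95 and 7.84 in knockout, so that wild-type TAC 2 lay inside the knockout range. Respiratory chain subunits had no call among 52 (median 0.10), with 1 higher at an unadjusted p under 0.05 and none called by DESeq2. Among 19 metabolic regulators Ppargc1a, the coactivator that drives mitochondrial genes, was higher, at 185 and 220.1 CPM in wild type against 447, 371, 318 and 263 CPM in knockout (log2 0.79 ± 0.16, adjusted p = 0.0233, and 0.222 without wild-type TAC 1). The nuclear receptor gene Esrrg did not pass (log2 0.31, adjusted p = 0.0643). Of all genes tested 0.383% were called higher.

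Splicing factors, the substrates and relatives of Clk3, showed few differences. Of 24 CLK and SRPK kinases and SR proteins tested none was called by edgeR or DESeq2, and 1 was higher at an unadjusted p under 0.05. Over all genes tested 2300 of 15651 had such a p, and 0.383% were called higher. The median difference of the 24 was 0.00, −0.18 without the library labelled wild-type TAC 1 and 0.19 without wild-type TAC 2. The direction thus followed the wild-type library. Clk1 was at 101 and 173 CPM in wild type against 224, 189, 160.0 and 179 CPM in knockout (log2 0.45 ± 0.19, adjusted p = 0.277). Of 25 other cardiac splicing regulators Rbfox1, a neuronal and muscle splicing factor, was higher, at 29.0 and 39.8 CPM against 57.7, 55.7, 63.6 and 48.9 CPM (log2 0.72 ± 0.13, adjusted p = 0.0114, and 0.182 without wild-type TAC 1). The files split each gene's counts between its coding and untranslated parts. The share of untranslated counts was compared for 10394 genes, a test chosen after the gene results were seen. No gene passed (limma, 421 at an unadjusted p under 0.05), and 2 passed without the library labelled wild-type TAC 1. Isoforms and splice junctions were not analysed here.

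Immune and vascular markers did not reach the threshold. Of 25 macrophage and monocyte markers none was called (edgeR, median −0.26), and DESeq2 called 1 lower. At an unadjusted p under 0.05, 5 were lower, against 2300 of 15651 over all genes in either direction. The macrophage markers had a mean log2 level of 4.10 and 3.93 in wild type and 3.61, 3.67, 3.64 and 3.97 in knockout. Their summed level was 668 to 803 CPM against 553 to 688 CPM. Trem2, a lipid-sensing receptor of macrophages, was at 6.98 and 5.70 CPM in wild type against 3.51, 2.43, 2.173 and 4.16 CPM in knockout (log2 −1.06 ± 0.26, adjusted p = 0.0555). Cx3cr1, the fractalkine receptor of resident macrophages, was at 20.6 and 14.4 CPM against 8.22, 10.8, 6.36 and 12.8 CPM (adjusted p = 0.124). No gene was called among 27 interferon-stimulated genes (median −0.10), 27 chemokines and cytokines (−0.03), 22 endothelial markers (−0.03) and 18 smooth muscle and pericyte markers (−0.04), all by edgeR. At an unadjusted p under 0.05 these lists had 2, 4, 0 and 3 genes, and DESeq2 called 2 genes of the smooth muscle list and none of the others. Endothelial markers overlapped between the genotypes in mean level, at 6.85 and 6.89 in wild type and 6.56 to 6.93 in knockout.

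Cell cycle genes had a lower median without a single call. Of 36 tested none passed by edgeR or DESeq2. At an unadjusted p under 0.05, 17 were lower, against 2300 of 15651 over all genes in either direction. Of the 36 differences 32 were negative (median −0.63, and −0.33 without the library labelled wild-type TAC 1). Without overlap 15 genes were lower, against 10.8% of all genes tested. Mki67, the proliferation antigen, was at 23.7 and 18.9 CPM in wild type against 12.005, 11.4, 6.74 and 17.0 CPM in knockout (adjusted p = 0.148), and Birc5, survivin, at 2.30 and 2.74 CPM against 1.29, 1.01, 1.141 and 1.45 CPM (adjusted p = 0.112). Among 42 genes of calcineurin and hypertrophic signalling Igf1 and Igfbp7 were lower (1.09% of all genes tested) and Adra1a was higher (0.383% of all). Igf1, insulin-like growth factor 1, was at 74.2 and 43.4 CPM against 26.2, 26.8, 29.6 and 38.9 CPM (log2 −0.95 ± 0.19, adjusted p = 0.0235), and at −0.51 (adjusted p = 0.303) without wild-type TAC 1. Adra1a, the alpha-1A adrenergic receptor, was at 12.3 and 18.4 CPM against 25.02, 28.9, 24.3 and 24.3 CPM (log2 0.74 ± 0.17, adjusted p = 0.0459, and 0.341 without wild-type TAC 1).

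Remaining lists held few calls, where 1.09% of all genes tested were lower and 0.383% higher. Of 32 heat shock and stress genes Psat1 and Nupr1 were lower (edgeR, median −0.06, and 0.14 without wild-type TAC 2), and of 13 atrial markers Kcnj3 was higher. Of 4 mesothelial and epicardial markers tested Krt18 was lower. No gene was called by edgeR among 29 of glucose uptake and glycolysis (median 0.07), 50 cytosolic ribosomal proteins (0.02), 23 immediate early genes (0.30) and 20 clock genes (0.19). Their counts at an unadjusted p under 0.05 were 9, 1, 5 and 5, against 2300 of 15651 over all genes tested. DESeq2 called 2 glycolytic genes higher, 1 immediate early gene lower and none of the rest. Of 8 adipocyte, 10 lymphocyte and neutrophil and 15 erythroid, platelet, nerve and skeletal muscle markers none was called by edgeR or DESeq2, with 0, 2 and 2 at an unadjusted p under 0.05.

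**Figure D5:**
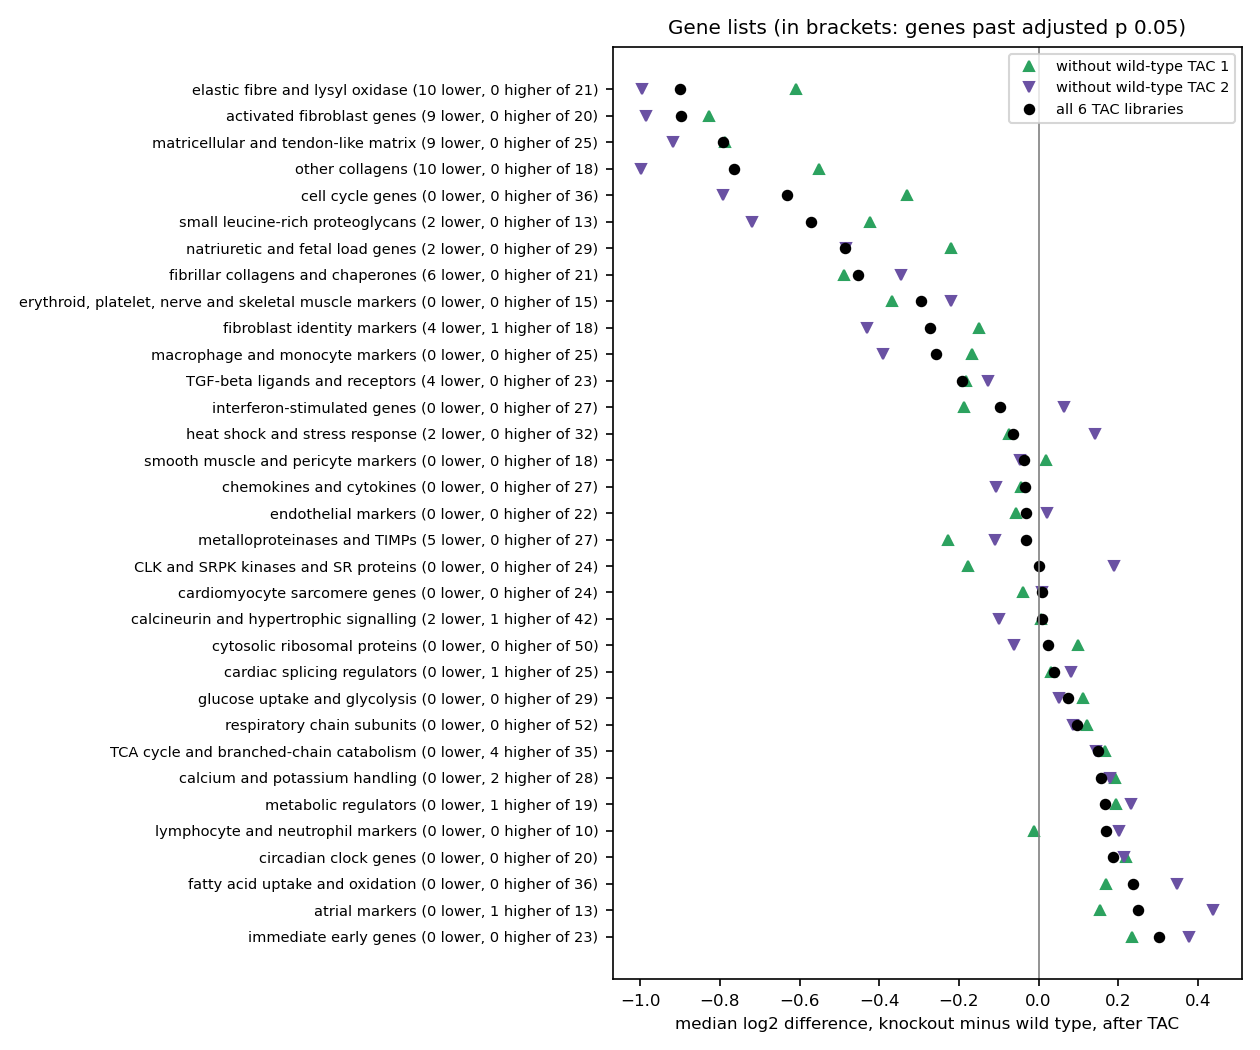
Median difference between knockout and wild type after TAC (horizontal axis, log2) of each gene list with at least 10 tested members. Circles use all 6 TAC libraries and triangles leave out one wild-type library each, with the numbers of genes past adjusted p 0.05 in brackets. The elastic fibre list lies lowest at −0.90, the sarcomere list lies at 0.01 and the fatty acid list at 0.24.

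The 10 largest falls by the naming rule were mostly of low level. Chodl, a C-type lectin domain protein, was at 0.593 CPM in wild-type TAC 2 and 3.30 CPM for the library labelled wild-type TAC 1, and at 0.0923, 0, 0.0543 and 0 CPM in knockout (edgeR adjusted p = 0.0352, and 0.352 without wild-type TAC 1). Frem1, a basement membrane protein, was at 9.36 and 1.85 CPM in wild type against 0.923, 0.744, 0.978 and 0.793 CPM in knockout, and its difference of −2.69 became −1.10 without wild-type TAC 1. C1qtnf3 was at 0.998 and 2.15 CPM against 0.0923, 0.270, 0.217 and 0.396 CPM. These 3 genes had wild-type libraries that differed widely from each other. Atp6v0a4, a subunit of the vacuolar proton pump, was at 11.7 and 4.67 CPM against 1.39, 1.28, 1.36 and 2.05 CPM (log2 −2.42 ± 0.33, adjusted p = 0.00125, and 0.0656 without wild-type TAC 1). Krt18, a keratin of simple epithelia and mesothelium, was at 6.22 and 3.26 CPM against 1.48, 0.676, 0.543 and 1.06 CPM (adjusted p = 0.00454, and 0.126 without wild-type TAC 1). The mesothelial markers Msln and Upk3b were at most 0.0923 CPM in all 6 libraries. Of the 11 mesothelial and epicardial markers listed, 7 were under 1 CPM in all 6, and the list summed to 12.8 to 23.4 CPM. Thbs4, Tnmd, Cilp, Col12a1 and Cthrc1, described above, made up the 10.

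The 10 largest rises by the same rule spanned 1.34 down to 0.79 on the log2 scale. Ndnf, a neuron-derived secreted factor, was at 5.37 and 5.33 CPM in wild type against 9.88, 10.1, 13.4 and 9.31 CPM in knockout (log2 1.00 ± 0.18, edgeR adjusted p = 0.00942). Mylk4, a myosin light chain kinase of the heart, was at 114 and 127 CPM against 191, 252, 283 and 209 CPM (log2 0.96 ± 0.16, adjusted p = 0.00632). Dglucy, the mitochondrial D-glutamate cyclase, was at 26.6 and 33.8 CPM against 54.6, 55.0, 56.0 and 46.4 CPM (log2 0.81 ± 0.12, adjusted p = 0.00259). In the wild-type TAC libraries all 3 lay below their sham ranges of 9.06 to 13.4, 208 to 429 and 58.5 to 84.4 CPM. Dglucy also lay below its sham range in every knockout TAC library, Mylk4 in the library at 191 CPM and Ndnf in none. Dusp18, a dual-specificity phosphatase, Ifi205, an interferon-inducible gene, Ociad2, Hsbp1l1 and the uncharacterised A530016L24Rik differed by 0.95, 1.01, 0.98, 1.03 and 1.04, with Kcnv2 and Kcnj3 making up the 10. None of the 10 was called without the library labelled wild-type TAC 1, where their adjusted p-values ran from 0.0656 (Dglucy) to 0.287 (Kcnj3).

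Of the 170 lower genes 11 (6.47%) were also called lower between genotypes after the sham operation, against 0.326% of all genes tested. Of the 60 higher genes 10 (16.7%) were also called higher there, against 0.626% of all. Whether a genotype difference after TAC differs from that after sham was tested by an interaction in the same edgeR fit, and 2 of 15651 genes passed. Ddah1 was at 6.56 to 7.88 CPM in wild-type sham and 7.05 to 8.95 CPM in knockout sham, and its difference after TAC was below that in sham by −1.04 ± 0.16 (log2, adjusted p = 0.0465). Ppm1e, a nuclear serine/threonine phosphatase (chromosome 11, 87226906 to 87359023, minus strand), was higher in knockout sham hearts (15.9 to 19.5 CPM in wild type, 23.2 to 34.5 in knockout) and at 46.4 and 51.5 CPM in wild-type TAC against 32.5, 34.9, 40.0 and 32.0 CPM in knockout TAC. Its interaction was −1.14 ± 0.17 (adjusted p = 0.0465). Without the library labelled wild-type TAC 1, 1 gene passed, and without wild-type TAC 2 36 genes passed. The other core genes were not shown to differ from sham by this test, for instance Postn (−1.87 ± 0.30, adjusted p = 0.0873) and Loxl3 (−1.28 ± 0.21, adjusted p = 0.0612).

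The 2 wild-type TAC libraries differed from each other more than any of the 6 knockout pairs did. Among 11019 genes of at least 5 CPM, 143 lay more than 2-fold apart between them, against 14 to 123 in the 6 knockout pairs. Mthfd2, a mitochondrial folate enzyme, was at 34.8 CPM in wild-type TAC 2 and 6.83 CPM for the library labelled wild-type TAC 1, and at 6.09, 5.27, 11.4 and 7.79 CPM in knockout. It did not pass with both libraries (edgeR log2 −1.43, adjusted p = 0.14), was called lower without wild-type TAC 1 (log2 −2.17, adjusted p = 0.00147) and was at 0.18 without wild-type TAC 2. Asns and Trib3, also known from the amino acid stress response, were called without wild-type TAC 1 and not with both. Psat1, a serine synthesis enzyme, was lower with both libraries, at 6.75 and 7.48 CPM against 3.97, 3.99, 3.97 and 4.62 CPM (adjusted p = 0.045). Cilp2, Gm17428, Ybx2 and Angptl4 were likewise higher in wild-type TAC 2, and Frem1, Gdf6, Rhox5, Tbx15 and Kif1a higher in wild-type TAC 1. Of the fat markers, Adipoq, Plin1 and Lep were near 0 in every TAC library. Cfd was at 2.44 and Car3 at 1.85 CPM in wild-type TAC 2 and at most 0.277 CPM in the other 5. Of the 14 adipocyte markers listed, 8 were under 1 CPM in all TAC libraries, and the list summed to 797 to 907 CPM. The clock gene Arntl was at 9.02 CPM in knockout TAC 3 and at 18.2 to 23.7 CPM in the other TAC libraries. The labels give no time of collection.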

How the data were processed

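Messenger RNA of mouse hearts was captured with poly-dT and sequenced from a strand-specific library, per the labels' protocols. The authors deposited read counts per gene for each library, split into coding and untranslated parts. STAR 2.4.2a, Picard 2.10.3 and bcl2fastq 2.17.1.14, with builds mm10 and GRCm38, come from the submitters' processing notes. Not given in the sources used here are the counting tool, its annotation and its strand setting, and antisense and overlapping genes are therefore uncertain.

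Groups were taken from the labels. Symbols and positions came from GENCODE M21 (GRCm38), which held 51633 of 51912 identifiers. Entries that name no gene entered neither the library sizes nor the tests: reads in no feature are 10.7% to 14.9% in the TAC libraries and ambiguous reads 1.54% to 1.59%. No replicate pair of the TAC groups agreed within sampling noise (chi-square per degree of freedom at least 5.00). Counts were fitted in edgeR 4.0.16 (R 4.3.3, TMM scaling, filterByExpr with a minimum count of 10, robust quasi-likelihood) with 14 libraries, 1 coefficient per group and 10 residual degrees of freedom. Of all genes 15651 were tested and 36261 were not. The contrast was knockout TAC minus wild-type TAC, with Benjamini-Hochberg adjustment over all genes tested and a threshold of 0.05. The common biological coefficient of variation was 11.8%. Single levels were compared by an exact permutation test. Scripts were tested on simulated data. Alternatives were DESeq2 1.42.0, DESeq2-style size factors, other filters, subsets of libraries, the coding part alone and each TAC library left out. limma 3.58.1 tested the untranslated share, as log2 ratios of the deposited counts with a pseudocount of 0.5.

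The text names Clk3 and 7 load genes, the 10 largest rises and falls among called protein-coding genes without overlap and of at least 1 CPM, the 4 members of smallest p in each list and any member needed to describe a list, genes called whichever library was left out, 5 genes of the label check and 5 genes in each direction between the 2 wild-type TAC libraries. Only some of the list members so chosen are printed. Carnmt1, Asns, Trib3, Ppm1e and the marker genes given as levels were added after their values were seen. The 35 gene lists and the members of the comparison were chosen with earlier results of these data known.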

Additional observations from a re-analysis of the deposited data

Results flagged for a closer look

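Among 109 genes looked at, 11 had 1 knockout TAC library far from the other 3, by a gap that chance gives in about 1 of 20 groups. Knockout TAC 4 was the lowest of its group for Atp2a2 (6572 CPM) and Dglucy (46.4 CPM) and the highest for Mxra8 (48.3 CPM), Atp6v0a4 (2.05 CPM) and Psat1 (4.62 CPM). In each of these 5 genes it was the knockout library nearest to wild type. Knockout TAC 3 was the highest for Col12a1 (6.63 CPM), Tnmd (0.326 CPM), Col8a2 (6.90 CPM) and Fmod (11.5 CPM). Knockout TAC 2 was the lowest for Mmp23 (10.9 CPM) and the highest for Adra1a (28.9 CPM).

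For 2 genes the genotype difference after TAC differed from that after sham operation by the interaction test in edgeR. The difference between them was −1.04 (log2) for Ddah1 and −1.14 for Ppm1e. Neither was called by this test without any one of the 4 knockout TAC libraries.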

How the results depend on the processing

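No paired analysis was possible because the labels give the libraries no shared replicate numbers, and the numbers used here follow accession order. The 230 genes called between genotypes after TAC (170 lower, 60 higher) became 483 (301 lower, 182 higher) with DESeq2, 57 (52 lower, 5 higher) with the 6 TAC libraries alone, 114 (91 lower, 23 higher) with the 10-week libraries alone and 142 (28 higher) with the coding part only. With another scaling or filter the total lay within 1.5 times of 230. Leaving out 1 TAC library gave 50 to 368 genes, 45 to 254 lower and 5 to 114 higher. Clk3 ranged from −0.67 to 0.09 (log2) over these fits, and was 0.0939 without wild-type TAC 2. The 2 genes of the interaction became 9 without a filter, 0 with the filter of 1 CPM, 0 with the 10-week libraries and 0 with the coding part, and 0 to 36 over the fits that leave out 1 library. Of 84 named genes called, the call was kept by 84 with the other size factors, 80 with DESeq2, 37 with the 6 TAC libraries alone, 31 without wild-type TAC 1 and 54 to 79 without any other single library. Of 24 named genes not called, Myh6 ranged from −0.0805 (without wild-type TAC 1) to 0.42, and Mthfd2 from −2.17 to 0.18 (without wild-type TAC 2). Of 455 list medians across settings 408 moved by less than the spread of the knockout libraries. The median of all genes stayed within 0.012 of 0 in every setting. With 2 wild-type libraries a single value cannot reach p = 0.05 by permutation, and genes at a few counts have wide errors.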
